A study of Mus musculus with 2 samples.

Results

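Collagen genes were followed across the non-immune cells of mouse gonadal white adipose tissue (gWAT). They were taken by name, as every gene whose symbol has the form Col, a number, a and a number, and 44 of the 28692 genes counted met that rule. The cells came from the stromal vascular fraction (SVF), the cells that remain after adipose tissue is digested and the floating adipocytes are removed. There was 1 library made from male C57BL/6 littermate control mice and 1 library from male Adipo-Pgam1 KO mice, both at 13 weeks of age by the labels. In the Adipo-Pgam1 KO mice, Adipoq-Cre deleted floxed Pgam1, which encodes the glycolytic enzyme phosphoglycerate mutase, and the study's methods describe the controls as Cre-negative mice with the same floxed alleles, whereas the labels call them wildtype. The Adipoq promoter drives Cre in adipocytes, a cell type that this preparation largely leaves out. The study reports a fibroblast cluster of the gWAT SVF rich in adipocyte markers, with markedly lower Pgam1 in the matching KO cells. From this it proposes that Adipoq-driven Cre had deleted Pgam1 in that cluster. Whether Cre acted in any of the cell classes described here was not tested in this report. The number of mice pooled in each library is not given in the sources used here.

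Pgam1 itself was counted at 110 CPM (counts of unique molecular identifiers scaled to the same total in every group of cells, as counts per 1e6) over all kept control cells and at 117 CPM over all kept KO cells. The position of the floxed part is not given in the sources used here, and these tags read only the 3′ end of a transcript, so the values do not check the deletion.

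Collagens are secreted proteins built from chains that wind around each other into a rope-like helix, and each chain is the product of its own gene. Fibril-forming collagens give tissue its tensile strength, the type IV network is the scaffold of basement membranes, and type VI forms beaded filaments close to the cell surface. In adipose tissue, fibroblast-like stromal cells are known as the main makers of interstitial collagen, while type IV collagen surrounds adipocytes and blood vessels.

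Chains of 1 network are often encoded side by side, and this layout holds for type IV collagen. On mouse genome build GRCm38, Col4a4 (chromosome 1, minus strand, 82448423 to 82586849) and Col4a3 (chromosome 1, plus strand, 82586921 to 82722059) start back to back with 71 bases between their annotated starts. This interval lies outside the exons of both genes and is shown, on the plus strand, because the transcripts that start on either side of it were counted together in most of the cell classes below.

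Interval between the Col4a4 and Col4a3 starts, chr1:82586850-82586920: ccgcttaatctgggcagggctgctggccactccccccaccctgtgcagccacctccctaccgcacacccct

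The sequence, taken from a RefSeq promoter table of GRCm38.p6, was 69.0% G or C. The CCAAT box, searched by those letters on both strands, was not found in it, and 13.3% of 32851 promoter windows of the same length held it. Likewise absent were the GC box, searched as GGGCGG and held by 20.7% of these windows, and the TATA box, searched as TATAAA and held by 4.41%. No base is therefore capitalised. The starts of Col4a1 and Col4a2 (chromosome 8) overlapped by 22 bases, and those of Col4a6 and Col4a5 (chromosome X) were 1308 bases apart. Other collagen genes that lie near each other include Col9a1 and Col19a1, and Col3a1 and Col5a2, on chromosome 1, Col6a1 and Col6a2 on chromosome 10, and Col6a4, Col6a5 and Col6a6 on chromosome 9.

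The control library held 42859406 unique molecular identifiers (UMIs, each standing for 1 captured transcript molecule) in 8522 barcodes, and the KO library 13821581 in 2730 barcodes. A barcode was kept when 500 or more genes were detected in it, mitochondrial transcripts made up no more than 10% of its UMIs and it was not called a doublet, which left 3616 control and 937 KO cells with medians of 6888.5 and 7481 UMIs. The libraries shared 9 barcodes before this filter and 0 after it. With 1 library per genotype there was no replicate and hence no test. The intervals given below are 95% exact Poisson or ratio intervals that cover counting error only, and not the spread between mice.

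Cells were clustered without the collagen genes and named from marker genes that included no collagen, so a name means that a cluster resembled the cell type by those markers. Stromal cells numbered 774 (control) and 180 (KO). They fell into a state with high Pi16 and Dpp4 (271 and 59 cells) and a state with low Pi16 and Dpp4 and high Agt (503 and 121 cells), called here the Pi16/Dpp4-positive and Pi16/Dpp4-negative stromal cells. Pi16 stood at 802 and 1138 CPM in the positive state and at 29.6 and 28.1 CPM in the negative state. Mural cells, which wrap blood vessels, numbered 217 and 21, with Rgs5 at 8430.1 and 6235 CPM. Endothelial cells numbered 153 and 62 with Pecam1 at 1425 and 1701 CPM, and mesothelial cells, which cover the tissue surface, numbered 105 and 20 with Upk3b at 2775 and 2707 CPM. The small KO classes limit every comparison of mural and mesothelial cells.

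Several values unrelated to collagen differed between the control and KO libraries in some or all of these classes. Summed haemoglobin and other erythroid markers stood at 2558 CPM in the control and 1299 CPM in the KO positive stromal cells, at 825 and 834 CPM in the negative stromal cells, at 3256 and 786 CPM in mural cells, at 2127 and 1399 CPM in endothelial cells and at 2217 and 572 CPM in mesothelial cells. All 8 macrophage markers were counted in control stromal cells (34.8 CPM summed) and 6 of 8 in KO stromal cells (10.7 CPM). Stress genes of the kind induced by tissue digestion summed to between 3084 and 3853 CPM in the 5 control classes and between 4659 and 5637 CPM in the 5 KO classes. The part of these differences in the results below was not tested.

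Of the 44 collagen genes, 28 reached 50 UMIs over the 5 classes of both libraries, and the others were not described further. All 6 type IV genes and both multiplexins were among the 28, with 7 of 11 fibril-forming genes, 5 of 6 type VI genes, 3 of 9 fibril-associated genes (FACITs, which coat fibrils), 2 of 3 short-chain genes, 2 of 4 transmembrane genes and 1 of 2 others. The 16 genes under that limit held at most 38 UMIs, reached by Col7a1, the anchoring fibril collagen of skin. They included the cartilage collagens Col2a1, Col9a1, Col9a2, Col9a3, Col11a1, Col11a2 and Col10a1, and Col10a1 was the only one with no UMI at all. The rest were Col6a4, Col17a1, Col19a1, Col20a1, Col22a1, Col24a1, Col25a1 and Col26a1.

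Stromal cells devoted the largest share of their transcripts to collagen. Collagen UMIs made up 2.69% (2.68 to 2.71) of all UMIs in control Pi16/Dpp4-positive stromal cells and 2.33% (2.30 to 2.36) in the KO cells. In Pi16/Dpp4-negative stromal cells control cells had 2.64% and KO cells 3.17%. Mural cells (1.24% and 0.910%) and mesothelial cells (1.26% and 1.14%) followed, and endothelial cells were lowest of the 5 (0.269% and 0.208%). Lymphocytes, which should make no fibrillar collagen, still showed 0.0323% and 0.0165%, and this level is used below as the background from free RNA. Their median depths were 4330.0 and 5878 UMIs, against medians between 4398 and 13790 in the 5 control classes and between 5710 and 18210 in the 5 KO classes.

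**Figure D1:**
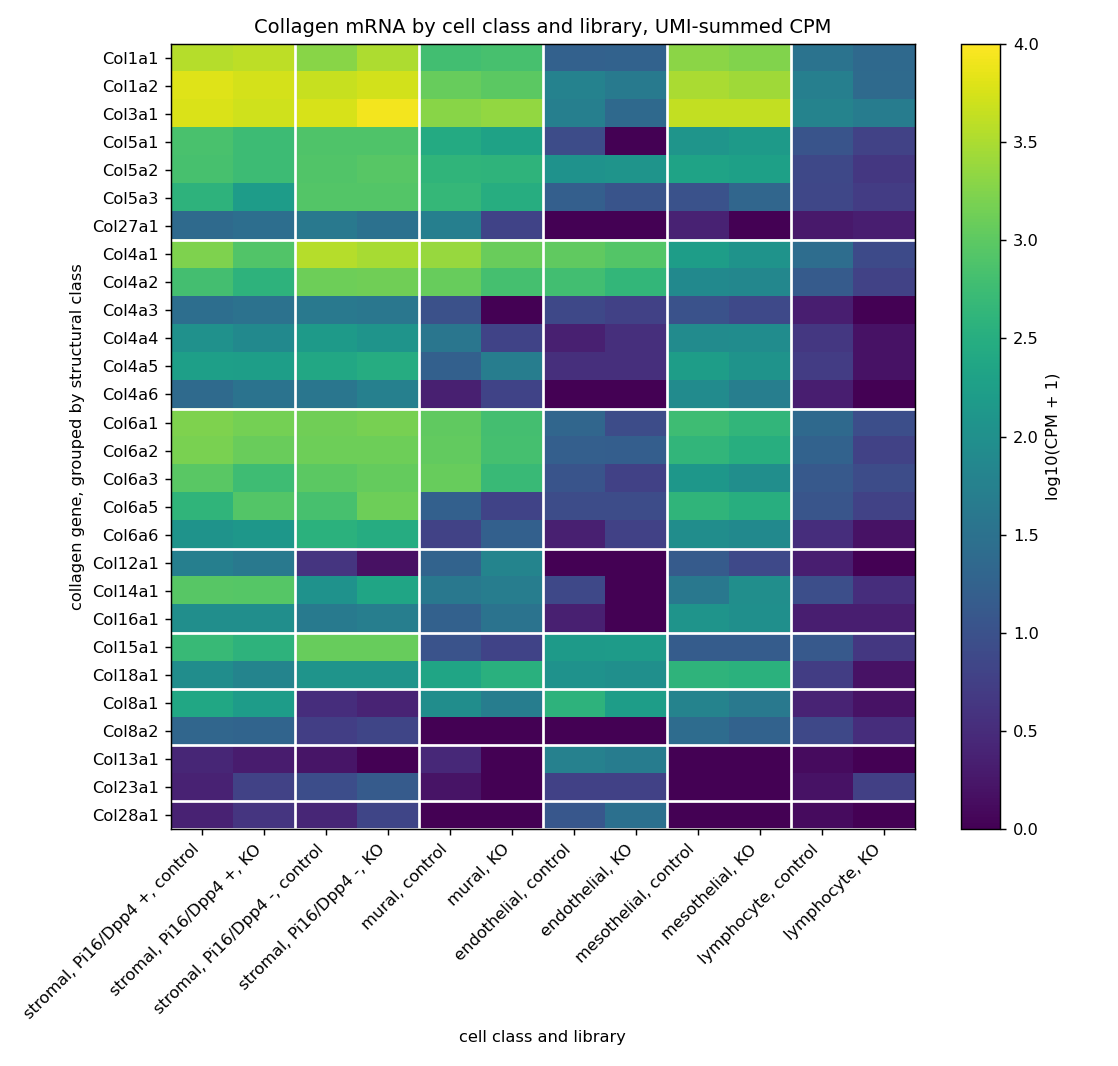
Level of each of the 28 measured collagen genes in the 5 cell classes of the control and KO libraries, as log10 of (CPM + 1), rows grouped by collagen class. Lymphocytes are added as the background. Col1a1, Col1a2 and Col3a1 are high in all classes except endothelial cells, where Col4a1 (1037 and 862 CPM) leads.

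Fibril-forming genes took most of the collagen transcripts outside the vessel wall. They made up 65.5% of collagen UMIs in control and 68.0% in KO positive stromal cells, 56.6% and 62.0% in negative stromal cells, and 77.0% and 79.7% in mesothelial cells. In mural cells they made up 40.0% and 52.7%, and in endothelial cells 9.72% and 10.1%. Type IV genes had the opposite order, with 61.4% and 63.0% in endothelial cells, 29.7% and 21.1% in mural cells, 20.3% and 15.5% in negative stromal cells, 9.99% and 6.58% in positive stromal cells and 4.70% and 3.89% in mesothelial cells. The order of the 5 classes by the type IV share was the same in both libraries.

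**Figure D2:**
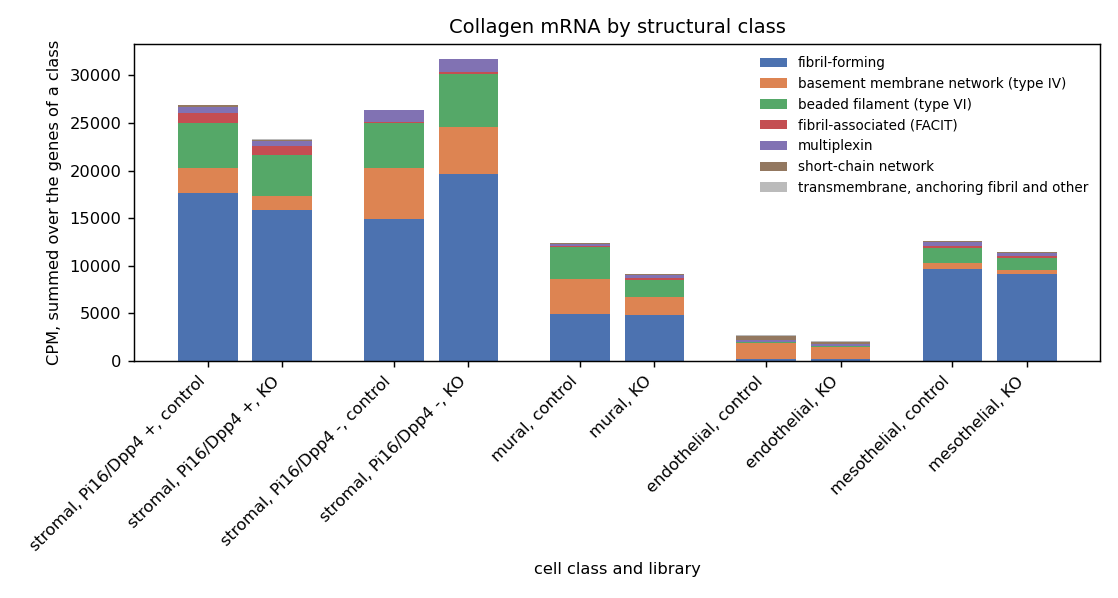
Summed CPM of the genes of each collagen class, stacked, in the 5 cell classes of the control and KO libraries. Stromal bars are the tallest and fibril-forming genes are the largest part of them (17625 and 15822 CPM in the positive state), whereas in endothelial cells type IV genes are (1651 and 1311 CPM).

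Among the fibril-forming genes, Col1a1 and Col1a2 encode the chains of type I collagen and Col3a1 the chain of type III, which often shares fibrils with it. Col1a2 stood at 6277 CPM in control and 5472 CPM in KO positive stromal cells, and at 4689.9 and 5312 CPM in negative stromal cells. It was lower in mesothelial cells (3111 and 2679.7 CPM) and in mural cells (1192 and 983 CPM), and in endothelial cells it stood at 59.1 and 44.2 CPM against a lymphocyte background of 51.5 and 23.2 CPM. The gene was thus highest in the positive state in both libraries, although the KO states lay close together.

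Col1a1 was also highest in the positive state, with 3573 and 3982 CPM in positive stromal cells, 1945 and 3187 CPM in negative stromal cells, 1986 and 1754 CPM in mesothelial cells, 621 and 685 CPM in mural cells, and 16.3 and 17.2 CPM in endothelial cells. The endothelial level was below that of lymphocytes (32.8 and 22.6 CPM) and reads as background. Control negative stromal cells and control mesothelial cells did not differ beyond counting error for Col1a1. Col3a1 was the most abundant collagen in negative stromal cells (5790.2 and 8584 CPM), mesothelial cells (4231 and 4323 CPM) and KO mural cells (2215 CPM, against 1937 CPM in the control). In positive stromal cells it stood at 5959 and 5085 CPM.

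Type V chains, which start fibrils and set their width, were less abundant. Col5a1 stood at 712 and 552 CPM in positive stromal cells, 801 and 797 CPM in negative stromal cells, 278 and 202 CPM in mural cells and 121 and 151 CPM in mesothelial cells. Col5a2 had the highest endothelial level of the fibril-forming chains, at 108 and 118 CPM against 6.43 and 3.48 CPM in lymphocytes and 828 and 899.6 CPM in negative stromal cells. Endothelial Col5a1 was at 7.54 and 0 CPM, under or near its lymphocyte level (9.94 and 5.22 CPM). Col5a3 had 846 and 844 CPM in negative stromal cells, 453 and 308 CPM in mural cells, and only 9.27 and 20.2 CPM in mesothelial cells. Its level in the negative state was the same in both libraries within counting error.

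Col4a1 and Col4a2 encode the chains of the common basement membrane network. Col4a1 stood at 3592 and 3041 CPM in negative stromal cells, 1712 and 831 CPM in positive stromal cells, 2434 and 1200.3 CPM in mural cells, 1037 and 862 CPM in endothelial cells, and 167 and 114 CPM in mesothelial cells. Col4a2 had 1289.9 and 1363 CPM in negative stromal cells, 1179 and 659 CPM in mural cells, 604 and 439 CPM in endothelial cells, 645 and 385 CPM in positive stromal cells and 78.4 and 70.7 CPM in mesothelial cells. Taken by class, both genes were highest in the Pi16/Dpp4-negative state and lowest in mesothelial cells in both libraries, with mural cells in second place. The mural value pools unlike clusters, described below. Its pericyte-like cluster alone had Col4a2 at 1769 and 1609 CPM, above the negative state, beyond counting error in the control only. Col4a1 in that cluster stood at 3648 and 2356 CPM. This was within counting error of the negative state in the control and below it in the KO library. For both genes positive stromal cells were above endothelial cells in the control and below them in the KO library, a difference beyond counting error only for Col4a1 in the control.

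The minor type IV chains, known for their part in the basement membranes of kidney, lung and smooth muscle, had lower levels. Col4a5 stood at 246 and 303 CPM in negative stromal cells, 177 and 173 CPM in positive stromal cells and 165 and 114 CPM in mesothelial cells, with at most 47.8 CPM in mural and 2.51 CPM in endothelial cells. Col4a4 was next, at 149 and 115 CPM in negative stromal cells, 104 and 78.8 CPM in positive stromal cells and 85.5 and 87.5 CPM in mesothelial cells. Its partner Col4a3, across the 71-base interval above, reached only 40.7 and 37.5 CPM in negative stromal cells. Col4a6 was the 1 type IV gene whose highest control class was mesothelial (84.8 CPM, and 50.5 CPM in the KO), close to the KO negative stromal cells (53.8 CPM). In endothelial cells none of the 4 minor chains exceeded 6.28 CPM.

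Type VI collagen is assembled from Col6a1, Col6a2 and a longer chain that can be Col6a3, Col6a5 or Col6a6. Col6a1 stood at 1674 and 1475 CPM in positive stromal cells, 1337 and 1528 CPM in negative stromal cells, 1059.8 and 648 CPM in mural cells, 582 and 424 CPM in mesothelial cells, and 20.1 and 7.36 CPM in endothelial cells against 21.9 and 8.11 CPM in lymphocytes. Col6a2 followed at 1580.2 and 1216 CPM, 1291 and 1287 CPM, 1101 and 669 CPM, 426 and 319.8 CPM, and 15.1 and 14.7 CPM in the same order of classes. Both core chains were low in endothelial cells alone of the 5 classes, where Col6a1 lay below its background.

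The longer chains differed more. Col6a3 was led by mural cells in the control (1159.6 CPM) and by negative stromal cells in the KO library (1120.2 CPM), with 128 and 94.3 CPM in mesothelial cells. Col6a5 stood at 694 and 1308 CPM in negative stromal cells, 414 and 851 CPM in positive stromal cells and 415 and 319.8 CPM in mesothelial cells, but had only 25 and 1 UMIs in mural cells. Col6a6 had 357 and 295 CPM in negative stromal cells, 113 and 132 CPM in positive stromal cells, 89.8 and 77.4 CPM in mesothelial cells and 5.12 and 15.9 CPM in mural cells. Mesothelial cells thus carried more Col6a5 than Col6a3, and mural cells the reverse, in both libraries.

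Of the FACITs, Col14a1 was the most abundant, at 898 and 875 CPM in positive stromal cells against 108 and 225 CPM in negative stromal cells and at most 94.3 CPM in the other classes. Col12a1 had 52.1 and 40.9 CPM in positive and 3.12 and 0.493 CPM in negative stromal cells, the last value resting on 1 UMI. Its KO mural level, on 12 UMIs, was 63.7 CPM, above the KO positive state but within counting error of it, against 17.9 CPM in control mural cells. Col16a1 stood at 117 and 97.6 CPM in mesothelial cells and 94.7 and 94.1 CPM in positive stromal cells, which did not differ beyond counting error in the KO library.

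The multiplexins, basement membrane proteoglycans whose ends are released as fragments such as endostatin, divided between classes. Col15a1 stood at 1162 and 1161 CPM in negative stromal cells, 487 and 386 CPM in positive stromal cells and 149.5 and 155 CPM in endothelial cells, with at most 13.5 CPM in mural and mesothelial cells. Col18a1, the endostatin precursor, was highest in mesothelial cells (392 and 360.2 CPM), followed by mural cells (225 and 345 CPM), with between 62.4 and 118 CPM in stromal and endothelial cells. In the KO library mesothelial and mural cells did not differ beyond counting error for Col18a1.

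Col8a1, a short-chain collagen of vessel walls, was highest in endothelial cells, at 378 and 167 CPM, with 240.1 and 163 CPM in positive stromal cells, a difference beyond counting error in the control library only. It was nearly absent from negative stromal cells (2.30 and 1.48 CPM, where lymphocytes had 1.46 and 0.580 CPM). Its partner chain Col8a2 was not counted in mural or endothelial cells, where 0 UMIs allow up to 2.36 and 4.63 CPM (control) and 19.6 and 9.05 CPM (KO). Col13a1, a transmembrane collagen, stood at 56.5 and 46.6 CPM in endothelial cells, but its 45 control UMIs came from 10 cells and its 19 KO UMIs from 1 cell. Col28a1 was also highest in endothelial cells, on 9 and 12 UMIs (11.3 and 29.5 CPM).

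Across the 28 measured genes, 20 were highest in the same cell class in both libraries. The Pi16/Dpp4-negative stromal cells led for 12 of these: Col4a1 to Col4a5, Col5a1, Col5a2, Col5a3, Col6a5, Col6a6, Col15a1 and Col23a1. The positive stromal cells led for 3 (Col1a1, Col1a2 and Col14a1), endothelial cells for 3 (Col8a1, Col13a1 and Col28a1), mesothelial cells for 2 (Col16a1 and Col18a1) and mural cells for 0. The share of all genes led by each class was not counted, so these are not results about collagens in particular. Some leads were within counting error, such as those between the stromal states for Col1a2, Col4a3 and Col23a1 in the KO library. These counts depended on the cells kept, and without doublet removal mural cells led for 7, the positive state for 1 and endothelial cells for 1. The mural class then held 341 control and 42 KO cells, against 217 and 21 in the main setting, and which cells had joined it was not examined. Mural cells also count as 1 class here, without an unnamed cluster, described below, whose highest marker score was for mural cells. Their pericyte-like cluster alone had more Col4a2 than the negative state in both libraries, beyond counting error in the control only (1769 against 1290 CPM). The other 8 genes (Col3a1, Col4a6, Col6a1, Col6a2, Col6a3, Col8a2, Col12a1 and Col27a1) were highest in different classes in the 2 libraries.

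The stromal states were set side by side within each library, for collagens with at least 50 UMIs over both states and libraries. Positive and negative state are clusters of the same cells, so the differences are a description and were not tested. Of 26 such collagens, 4 (15.4%) were at least 2-fold higher in the positive state in both libraries, against 268 of 10538 genes (2.54%). Another 6 (23.1%) were at least 2-fold lower in both, against 252 genes (2.39%). The median log2 ratio of positive over negative state for the collagens was -0.29 (control) and -0.58 (KO), and -0.10 and -0.08 for all genes.

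The 4 genes higher in the positive state were Col8a1 (log2 ratio 6.71 for the control and 6.78 for the KO library), Col12a1 (4.06 and 6.37, the latter with an interval from 3.81 to 11.71), Col14a1 (3.06 and 1.96) and Col8a2 (2.18 and 1.64). They are short-chain and fibril-associated collagens. The 6 lower genes were Col4a1 (-1.07 and -1.87), Col4a2 (just past the 2-fold limit in control cells, and -1.82), Col5a3 (-1.15 and -2.40), Col6a6 (-1.66 and -1.16), Col15a1 (-1.26 and -1.59) and Col23a1 (-2.42 and -1.33, the latter with an interval from -3.06 to 0.078 that holds 0). Basement membrane components, namely both main type IV chains and Col15a1, were thus on the negative side in both libraries. Col16a1 lay just inside and just outside the limit (1.13 and 0.92), and 23 of the 26 collagens had the same sign in both libraries. The share of all genes with the same sign was not counted. The states were cut once over the cells of both libraries together, so the shared signs are not a replication.

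**Figure D3:**
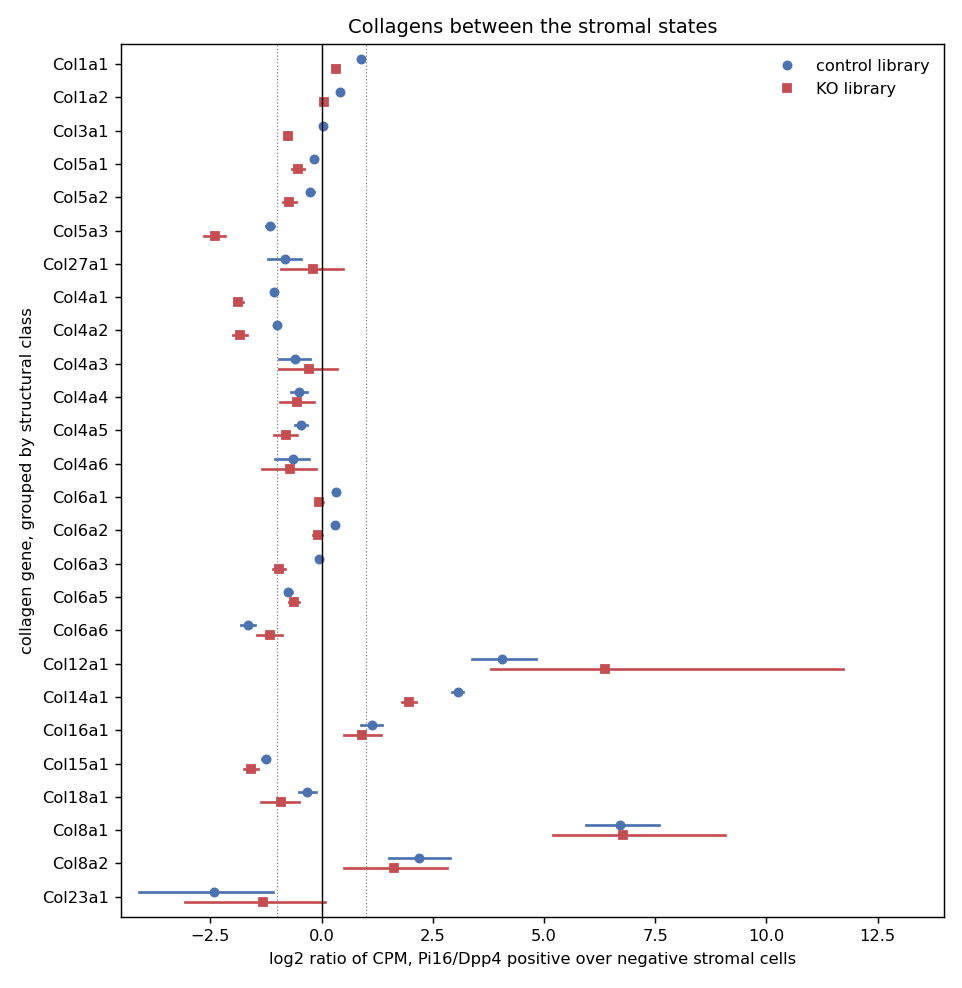
Log2 ratio of Pi16/Dpp4-positive over Pi16/Dpp4-negative stromal cells for each measured collagen, control and KO libraries as separate points with 95% counting intervals. Col8a1 lies farthest to the right (6.71 and 6.78), and Col4a1 (-1.07 and -1.87) and Col5a3 (-1.15 and -2.40) lie left of 0 in both libraries.

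The next question was how collagen transcripts of these cells differed between Adipo-Pgam1 KO and control mice. Genes with at least 50 UMIs over both libraries in a class were compared, and a gene was counted when its CPM differed at least 2-fold. Over all stromal cells, 0 of 26 collagens were at least 2-fold higher in the KO library, against 1.18% of all genes compared, and 0 were at least 2-fold lower, against 1.66%. The median log2 ratio of KO over control was -0.01 for the collagens, with medians of the interval limits at -0.13 and 0.09, and -0.11 for all genes. The count interval lay above 0 for 9 collagens and below 0 for 8. Such interval counts were not made over all genes, here or in the classes below, and abundant genes have narrow intervals that leave out 0 at small differences.

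The most abundant collagens of all stromal cells differed by much less than 2-fold. Col3a1 stood at 5852 CPM in control and 7445 CPM in KO cells (log2 ratio 0.35), Col1a2 at 5266 and 5364 CPM (0.03) and Col4a1 at 2909 and 2322 CPM (-0.33). Col6a5 came nearest to the limit, at 592 and 1160 CPM (log2 ratio 0.97, interval 0.91 to 1.03), and with TMM scaling it was past the limit together with Col23a1 (5.44 and 10.3 CPM). Col8a1 was at the other end, at 88.7 and 53.9 CPM (-0.72, interval -0.97 to -0.47).

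In Pi16/Dpp4-positive stromal cells, collagen transcripts were on balance lower in the KO library. The median log2 ratio of 25 collagens was -0.23 (medians of the limits -0.49 and -0.10), and that of all genes was -0.11. Of the collagen intervals, 14 lay below 0 and 2 above, a count with no counterpart over all genes. Only Col6a5 was at least 2-fold higher, at 414 CPM in the control and 851 CPM in the KO cells (log2 ratio 1.04, interval 0.92 to 1.16), which is 4% of the collagens against 1.01% of all genes. Col4a1 (1712 and 831 CPM, -1.04, interval -1.15 to -0.94) and Col5a3 (381 and 160 CPM, -1.25, interval -1.50 to -1.01) were at least 2-fold lower, 8% of the collagens against 2.39% of all genes.

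Type IV genes of the positive state summed to 2688 CPM in control and 1531 CPM in KO cells (log2 ratio -0.81, interval -0.89 to -0.73), and the fibril-forming sum 17625 and 15822 CPM (-0.16). Col1a2 (-0.20), Col3a1 (-0.23) and Col1a1 (0.16) differed little. Agt, a marker of the other state, stood at 16.7 CPM in the control and 75.7 CPM in the KO positive cells, and Pgam1 at 109 and 81.9 CPM. The boundary between the states depended on the cells that entered the clustering, and without doublet removal the positive state held 64 and 14 cells and the Col6a5 log2 ratio was 0.22 and that of Col4a1 -0.75.

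In Pi16/Dpp4-negative stromal cells the collagens leaned the other way. Their median log2 ratio was 0.12 over 23 genes (medians of the limits -0.02 and 0.25), against -0.11 for all genes. Of the collagen intervals, 11 lay above 0 and 4 below, again with no such count over all genes. Col14a1 was at least 2-fold higher, at 108 CPM in the control and 225 CPM in the KO cells (1.06, interval 0.88 to 1.23), which is 4.35% of the collagens against 1.02% of all genes. None was at least 2-fold lower, against 2.03% of all genes. With a filter of 200 genes and 20% mitochondrial UMIs the median was -0.031, and over 15 other settings the Col14a1 log2 ratio ran from 0.38 to 1.29 and passed 2-fold in 11. Not every setting could change the ratio, so these are not independent checks.

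Col6a5 again came close, at 694 and 1308 CPM (0.92, interval 0.84 to 0.99). Col1a1 stood at 1945 CPM in the control and 3187 CPM in the KO cells (0.71) and Col3a1 at 5790.2 and 8584 CPM (0.57), while Col1a2 (0.18) and Col4a1 (-0.24) were closer to 0. The sum over fibril-forming genes was 14942 and 19655 CPM (0.40, interval 0.38 to 0.41) and that over type IV genes 5354 and 4914 CPM (-0.12). Col5a1, Col5a3 and Col15a1 were at the same level in both libraries within counting error (log2 ratios -0.0081, -0.0030 and -0.0014). Whether the genotype difference itself differed between the states was not tested, since each rests on 1 library per genotype.

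**Figure D4:**
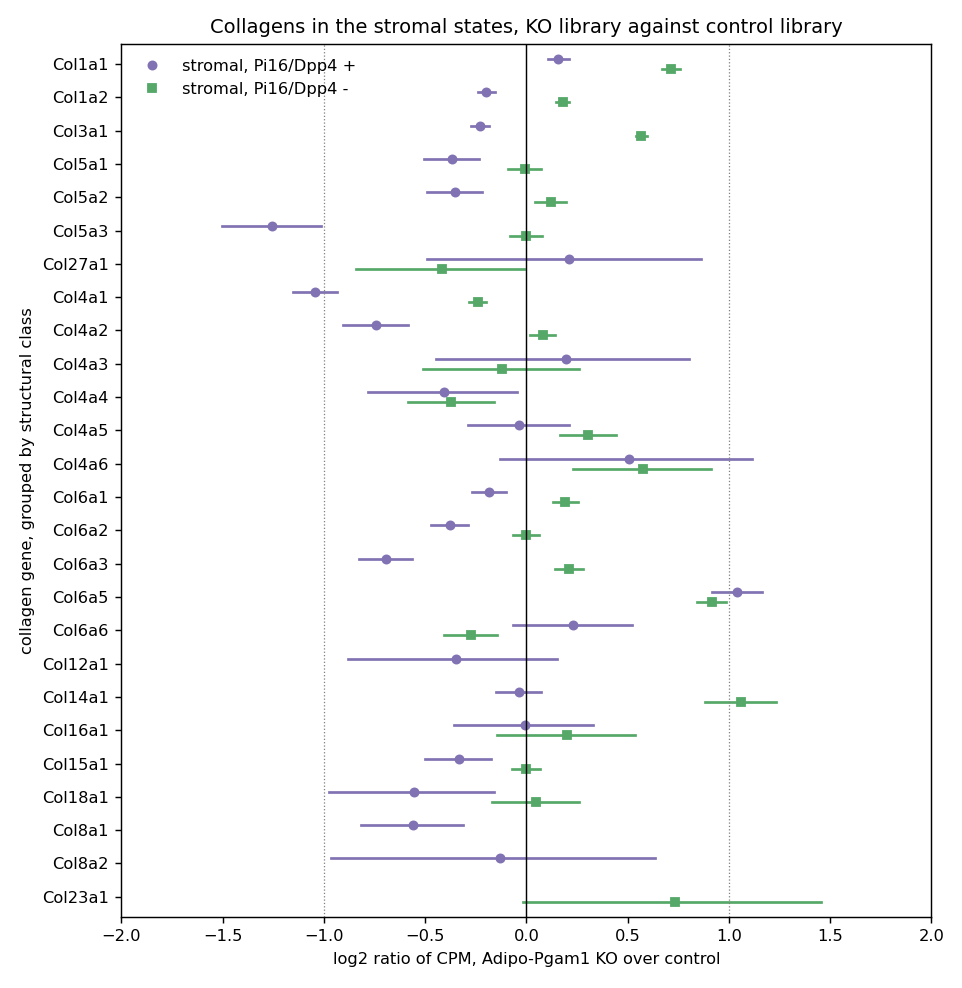
Log2 ratio of CPM, KO over control, for each collagen in the Pi16/Dpp4-positive stromal cells (circles) and the Pi16/Dpp4-negative stromal cells (squares), with 95% counting intervals and dotted lines at a 2-fold difference. Col6a5 is high in both states (1.04 and 0.92), whereas Col4a1 and Col5a3 are low in the positive state (-1.04 and -1.25) and closer to 0 in the negative state (-0.24 and -0.0030).

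Mural cells had lower collagen levels in the KO library, on 21 KO cells. The median log2 ratio of 16 collagens was -0.63 (medians of the limits -0.98 and -0.11), against -0.13 for all genes. None was at least 2-fold higher, against 2.99% of all genes, and 4 (25%) were at least 2-fold lower, against 11.8% of all genes: Col4a1 (2434 and 1200.3 CPM, -1.02), Col6a3 (1159.6 and 509.9 CPM, -1.19), and, each on 1 KO UMI, Col4a4 (-2.75, interval -8.08 to -0.22) and Col27a1 (-3.32, interval -8.64 to -0.80). Col3a1 (1937 and 2215 CPM, 0.19) and Col18a1 (225 and 345 CPM, 0.62) lay on the other side.

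The mural class was made of 2 clusters that the libraries filled unequally. A cluster rich in Kcnj8 and Abcc9, which mark pericytes, held 127 control and 7 KO cells, and a cluster rich in Myh11 and Acta2, which mark smooth muscle, held 90 and 14. Markers also differed between the libraries within the first cluster. Kcnj8 stood there at 1760 CPM in control and 603 CPM in KO cells, Acta2 at 145 and 805 CPM and Myh11 at 231 and 431 CPM. Abcc9 (2514 and 2098 CPM) and Rgs5 (10542 and 11839 CPM) were closer. The part of this in the ratios below was not tested. Col4a1 stood at 3648 and 2356 CPM in the first cluster and at 1201 and 938 CPM in the second, so that its log2 ratios within clusters were -0.63 (interval -0.97 to -0.31) and -0.36 (interval -0.62 to -0.10). For Col6a3 they were -0.80 (interval -1.31 to -0.34) and -0.09 (interval -0.52 to 0.32). Neither of these genes was 2-fold lower within a cluster, and Col4a2 had -0.14 and -0.39. Past 2-fold within a cluster were Col8a1 (-1.54, interval -2.70 to -0.57) and, on 1 KO UMI, Col27a1 (-3.59, interval -8.92 to -1.06) in the second cluster, and, also on 1 KO UMI, Col4a4 in the first (-1.11, interval -6.45 to 1.43). The share of all genes past 2-fold within each cluster was not counted. Over the whole mural class, 11.8% of all genes were at least 2-fold lower. Summed stromal markers were also lower in KO mural cells (2672 CPM in the control and 1939 CPM in the KO cells), and their part in these values was not tested.

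Endothelial cells had 9 measured collagens with a median log2 ratio of -0.28 (medians of the limits -0.72 and 0.39), against -0.12 for all genes. None was at least 2-fold higher, against 1.51% of all genes, and 2 (22.2%) were at least 2-fold lower, against 3.48%. Col8a1 stood at 378 CPM in 153 control cells and 167 CPM in 62 KO cells (-1.18, interval -1.58 to -0.80). The other gene, Col3a1 (52.8 and 22.1 CPM, -1.26, interval -2.48 to -0.20), was at or below the lymphocyte level in both libraries (59.9 and 46.9 CPM) and reads as background. Col4a1 (1037 and 862 CPM, -0.27) and Col4a2 (604 and 439 CPM, -0.46) were lower by less than 2-fold, and Col15a1 did not differ beyond counting error (149.5 and 155 CPM, 0.05).

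Mesothelial cells, with 20 KO cells, had 19 measured collagens with a median log2 ratio of -0.22 (medians of the limits -0.74 and 0.14), against -0.06 for all genes. Col14a1 alone was at least 2-fold higher (38.5 and 94.3 CPM on 54 and 28 UMIs, 1.29, interval 0.58 to 1.98), 5.26% of the collagens against 1.24% of all genes. None was at least 2-fold lower, against 4.21% of all genes. Col3a1 (4231 and 4323 CPM, 0.03), Col1a2 (3111 and 2679.7 CPM, -0.22) and Col1a1 (1986 and 1754 CPM, -0.18) were close between the libraries. The comparisons in the 5 classes draw on the same 2 libraries and are not independent of each other.

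Chains that assemble into 1 molecule were compared as ratios of UMIs. Each UMI counts 1 molecule from its 3′ end, so no division by transcript length was made, although capture can differ between genes. Type I collagen is built with more alpha1 than alpha2 chain, yet Col1a2 had the higher count in all 9 groups of cells with at least 50 UMIs of the pair. One of these groups, control endothelial cells (47 and 13 UMIs, ratio 3.62), carried both genes at or near the lymphocyte level and reads as background. The Col1a2 to Col1a1 ratio was 1.76 (1.72 to 1.80) in control and 1.37 (1.32 to 1.43) in KO positive stromal cells, 2.41 (2.36 to 2.46) and 1.67 (1.62 to 1.72) in negative stromal cells, 1.92 and 1.43 in mural cells, and 1.57 and 1.53 in mesothelial cells. The ratio was lower in the KO library in both stromal states by more than counting error, and it did not differ beyond it in mesothelial cells. Lymphocytes, which carry background RNA, had 1.57 and 1.03.

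Col4a1 exceeded Col4a2 in all 10 groups, with 2.65 and 2.16 in positive stromal cells, 2.79 and 2.23 in negative stromal cells, 2.07 and 1.82 in mural cells, 1.72 and 1.96 in endothelial cells and 2.13 and 1.62 in mesothelial cells. Col6a1 and Col6a2 were the most evenly matched pair, between 0.962 and 1.36 over 8 groups, whereas Col6a3 to Col6a1 ran from 0.221 to 1.09. The head-to-head pairs were uneven: Col4a4 exceeded Col4a3 by between 2.57 and 9.23 times over 6 groups, and Col4a5 exceeded Col4a6 by between 1.95 and 7.70 times over 5.

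**Figure D5:**
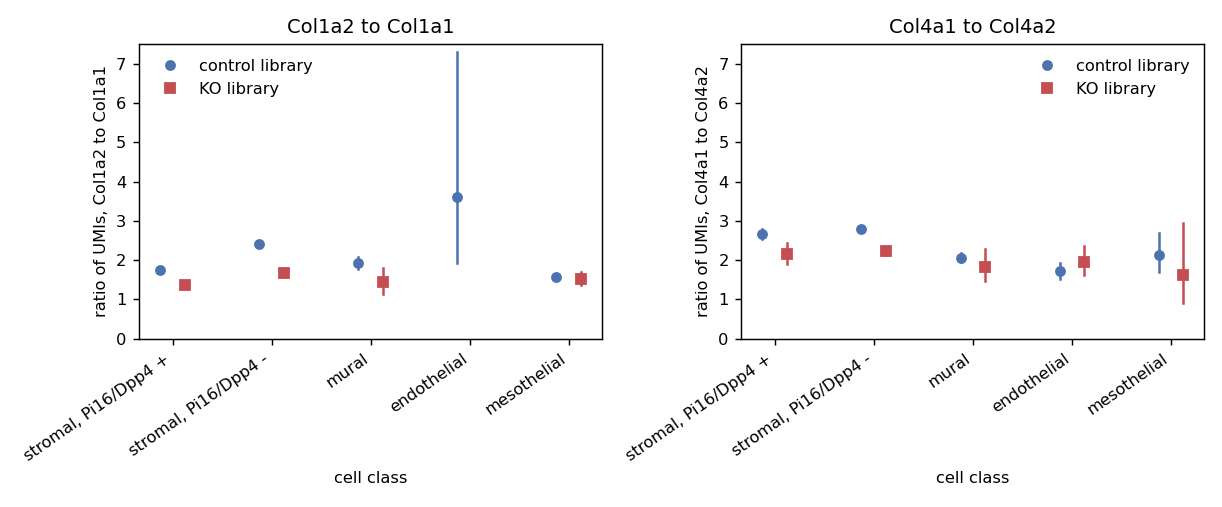
Ratio of UMIs of Col1a2 to Col1a1 (left) and of Col4a1 to Col4a2 (right) by cell class, control library as circles and KO library as squares, with 95% counting intervals, for groups with at least 50 UMIs of the pair. Col1a2 to Col1a1 lies between 1.37 and 3.62, the highest value being that of control endothelial cells, which reads as background, and the KO value is the lower one in both stromal states for both pairs.

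A list of 44 genes that make, fold, cross-link, bind or degrade collagen was read in the same way. Over all stromal cells 38 were measured, 0 were at least 2-fold higher in the KO library and 2 were at least 2-fold lower: Colgalt2, a collagen galactosyltransferase (log2 ratio -1.39), and Adamts14, which trims procollagen ends (-1.26). Over all genes these shares were 1.18% and 1.66%. The same genes were lower in negative stromal cells (-1.35 and -1.25), where Fmod, a fibril-binding proteoglycan, was higher (1.30), among 37 measured and against 1.02% of all genes higher and 2.03% lower. In positive stromal cells none of 35 reached 2-fold, against 1.01% and 2.39% of all genes. The median log2 ratios of the list were -0.04, -0.17 and -0.03 in all, positive and negative stromal cells, near the medians of all genes.

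In mural cells 1 of 29 listed genes was at least 2-fold higher, the cross-linking enzyme Lox (1.90), and 5 were lower, against 2.99% and 11.8% of all genes. The median of the list was -0.37 in mural cells, against -0.13 for all genes. P3h3 and Plod2, which hydroxylate chains, Loxl3, a cross-linking enzyme, and Mrc2, an uptake receptor, held at most 3 KO UMIs each (log2 ratios between -2.50 and -1.01), and Dcn (333 and 58.4 CPM, -2.51) encodes the fibril-binding proteoglycan decorin and also marks stromal cells. In endothelial cells Lox was lower (-1.05), alone of 15, against 3.48% of all genes lower and 1.51% higher. In mesothelial cells none of 28 reached 2-fold in either direction, against 1.24% of all genes higher and 4.21% lower.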

How the data were processed

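Single-cell libraries (10x Chromium 3′ v3) were made from the SVF of gWAT, 1 per genotype. Per the submitters' processing notes, the authors used Cell Ranger 3.0.1, Seurat 3.1.5 and R 4.0.1. The deposited values are whole-number UMI counts per gene and barcode, not normalized. Alignment was to mm10 (GRCm38), and the annotation release is not given in the sources used here. Gene positions came from GENCODE vM21, where 28416 of 28692 gene identifiers and all 44 collagens were found.

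Barcodes with 500 or more genes and 10% or less mitochondrial UMIs were kept. The barcodes with the highest Scrublet doublet scores were then removed (265 control, 21 KO), at an assumed rate of 0.8% per 1000 deposited barcodes. No score threshold was used. Counts scaled to 10000 were clustered on 2000 variable genes, collagens left out, with 30 principal components, 20 neighbours and Leiden resolution 0.5, giving 24 clusters of which 20 were named. A cluster was named where its mean marker score was above 0.5 and led the next list by at least 0.75, with 3 or more markers detected. Cells in the 4 clusters without a name were 13.9% (control) and 17.4% (KO) of those kept. The 11 cells with 3 or more of 6 Schwann markers were left out, none of them in the 5 classes.

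UMIs were summed per class and library and scaled to CPM. A gene was compared with at least 50 UMIs over the groups compared. Ratios carry exact binomial and levels and shares exact counting intervals. A count of 0 was set to 3 UMIs in a ratio. With 1 library per genotype no test was run. Genes named are the 3 most abundant collagens of each class and those past 2-fold, with all 28 measured collagens listed by class. The members and lists were chosen with earlier results of these data known. The scripts were tested on simulated data. Tools were Python 3.11.15, scanpy 1.11.5, leidenalg 0.10.2, scipy 1.17.1, pandas 2.3.3, matplotlib 3.10.9, R 4.3.3 and, for TMM factors only, edgeR 4.0.16. The alternatives tried concern scaling, depth, clustering, cell filters and the UMI minimum.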

Additional observations from a re-analysis of the deposited data

Results flagged for a closer look

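For 6 collagens the count interval of the KO to control ratio lay below 0 in Pi16/Dpp4-positive and above 0 in Pi16/Dpp4-negative stromal cells. The log2 ratios in the positive and the negative state were -0.20 and 0.18 for Col1a2, -0.23 and 0.57 for Col3a1, -0.74 and 0.080 for Col4a2, -0.35 and 0.12 for Col5a2, -0.18 and 0.19 for Col6a1 and -0.69 and 0.21 for Col6a3. The share of all genes that met the same rule was not counted, and intervals of genes with many UMIs leave out 0 even at small differences. The count is thus not a result about collagens in particular. Each state rests on 1 library per genotype, and the difference between the states was not tested.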

How the results depend on the processing

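No paired analysis was possible because each genotype has 1 library. Depth limits the KO mural (21) and mesothelial (20) cells most. Of 228 summary values recomputed under other settings, 192 stayed close and 36 moved. Over all stromal cells, 1 collagen was at least 2-fold higher with cells weighted equally, with median-of-ratios factors, with the lymphocyte background subtracted or with a minimum of 20 UMIs, and 2 were with TMM factors or with a filter of 1000 genes and 5% mitochondrial UMIs. At least 2-fold lower was 1 collagen with cells thinned to 2000 UMIs, with cells assigned by detected markers, or at 1000 genes and 5%. At 200 genes and 20% mitochondrial UMIs the KO median was -0.031 in negative stromal cells, opposite in sign to the 0.12 given above, and -0.093 in mural cells. The median ratio of positive over negative state in the control library was -0.49 at resolution 1.0, -0.13 with assigned cells, -1.04 at 200 genes and 20%, -0.86 at 1000 genes and 5%, and -0.97 without doublet removal. In the KO library it was -1.01 at resolution 1.0, -1.49 at 200 genes and 20%, -1.09 at 1000 genes and 5%, and -1.46 without doublet removal. The positive state held 271 control and 59 KO cells, 57 and 13 at 200 genes and 20%, and 47 and 11 at 1000 genes and 5%.

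Collagens highest in the positive state in both libraries numbered 5 with cells weighted equally and 1 at resolution 1.0, with assigned cells, at 1000 genes and 5%, or without doublet removal. In mural cells they numbered 1 at resolution 1.0, 4 at 1000 genes and 5%, and 7 without doublet removal. In endothelial cells they numbered 1 when thinned, without doublet removal or with a minimum of 100 UMIs, and 0 at 1000 genes and 5%. In mesothelial cells they numbered 4 with cells weighted equally, 0 when thinned, and 1 with TMM or median-of-ratios factors. Of single collagens, Col4a4 in mural cells was 0.61 at resolution 0.3, 0.65 at 1000 genes and 5%, and 0.63 without doublet removal, and Col6a3 in mural cells was 0.019 at 200 genes and 20%. The mural class held 300 control and 42 KO cells, 82 and 8, and 341 and 42 in the first 3 of these settings, against 217 and 21 in the main one. An unnamed cluster of 83 and 21 cells, described below, carried Col4a4 above the level of mural cells, and its part in these values was not tested. In the positive state Col6a5 was past 2-fold in 8 of 15 settings (0.11 to 1.41), Col4a1 in 8 (-1.18 to -0.45) and Col5a3 in 11 (-1.39 to -0.59). Col14a1 was past it in 11 of 15 settings in the negative state (0.38 to 1.29) and in 12 of 15 in mesothelial cells (0.53 to 1.60). In mural cells Col4a1 was past it in 12 of 16 settings, and in endothelial cells Col8a1 in 14 of 15. The cause was not tested. Not every setting could change a ratio. Keeping the Schwann-like cells left the 5 classes as they were, and another clustering seed gave the same number of cells in each. The tallies of settings are therefore not counts of independent checks.

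Resolution 0.3 gave no separate stromal states, and 200 genes and 20% gave no endothelial class. Counts were too low for Col4a4 and Col27a1 in mural and Col14a1 in mesothelial cells when thinned, for Col4a4 in mural cells at 200 genes and 20%, and for Col3a1 in endothelial cells with the background subtracted.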

Other observations

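An unnamed cluster of 83 control and 21 KO cells, led by Tenm2, Kcnip1, Ajap1, Acvr1c, Tnnt2 and Galr2, carried Col4a3, Col4a4 and Col4a6 at higher levels than the 5 classes above in both libraries (for Col4a6 in the control, within counting error of the mesothelial level), and Col4a5 at a level (229 and 309 CPM) near that of the Pi16/Dpp4-negative stromal cells (246 and 303 CPM). Col4a4 stood at 867 and 865 CPM and Col4a3 at 197 and 204 CPM, so that the Col4a4 to Col4a3 ratio was 4.39 (3.72 to 5.21) in the control and 4.25 (3.16 to 5.79) in the KO cells. The cluster also held the transmembrane collagens Col13a1 (236 and 254 CPM) and Col23a1 (257 and 327 CPM), which were below 60 CPM in all 5 classes. Col11a1, a cartilage collagen, had 42 control UMIs there (47.3 CPM). Its Col3a1 was low for its type I collagen, with 423 and 378 CPM against 1346 and 1356 CPM of Col1a2.

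Lymphatic endothelial cells (56 and 12 cells) had lower type IV sums than the endothelial class, at 735 and 306 CPM against 1651 and 1311 CPM. The multiplexin Col18a1 stood at 375 and 393 CPM, against 107 and 98.2 CPM in the endothelial class, and the transmembrane collagen Col23a1 at 179 and 142 CPM, against 5.03 and 4.91 CPM. These clusters are groups of the same cells, so the differences are descriptions and were not tested.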
